A study of Rattus norvegicus and Mus musculus with 251 samples.

Results

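The 32 genes described here mark microglia, the resident immune cells of the brain. They were chosen by symbol, and every symbol matched 1 row among the 46078 genes of the mouse count table. All 32 passed the low-count filter in both brain regions, where 17966 genes were tested in prefrontal cortex (PFC) and 18382 in nucleus accumbens (NAc). C57BL/6J mice of both sexes drank a saline or a morphine solution, and tissue punches of PFC and NAc were sequenced as total RNA. In PFC there were 6 saline libraries (3 female, 3 male), 8 from mice on chronic morphine (3 female, 5 male), 9 taken 24 h after morphine (4 female, 5 male) and 7 taken 2 weeks after it (3 female, 4 male). In NAc the same groups held 7 (3 female, 4 male), 8 (3 female, 5 male), 9 (4 female, 5 male) and 8 (3 female, 5 male) libraries. All mice came from a single strain, and the morphine dose, the length of drinking and the ages are not given in the sources used here. The labels number the libraries but do not say that a number stands for 1 animal, so p-values measure the spread between these libraries.

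Microglia arise from yolk sac progenitors, live on signals through the CSF1 receptor, and survey tissue with fine processes guided by purinergic and chemokine receptors. They clear debris and synapses through complement, TREM2 with its adaptor TYROBP, and the kinase MERTK, and they digest the cargo in lysosomes. Their identity rests on the transcription factors PU.1, encoded by Spi1, and IRF8. Opioid exposure has long been studied for its action on these cells. In bulk tissue, fewer microglia and less RNA per microglial cell cannot be told apart.

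The label of cell type on every mouse library was neuron, although RNA came from whole punches, and the microglial genes were detected alongside neuronal ones. Total gene counts ran from 5182601 to 41532464 in PFC (median 29999922) and from 22387525 to 43963295 in NAc (median 32159518). The 32 genes together made up 0.0606 to 0.0931% of gene counts in PFC and 0.0770 to 0.149% in NAc, and a library held between 4739 and 62640 counts of them. The list of neutrophil and monocyte markers lay near the detection limit, with only 3 of its 10 genes passing the filter in PFC and 5 of 10 in NAc. PFC number 10, a female at 2 weeks, stood apart. It was the library with 5182601 counts, where the next lowest PFC total was 24936879, and 85.3% of its gene counts between 10 and 1000 were even numbers, against 51.8 to 57.7% in the other 61 libraries. In it 8 of the 32 genes had 0 counts (Aif1, P2ry13, Gpr34, Siglech, Cd53, Ptprc, Igsf6 and Csf3r), 3 lay below every other PFC library and 11 above every other. The libraries numbered 27, labelled female, had a male pattern of sex-linked genes in both regions. NAc numbers 6 and 25 were low in the striatal gene Drd1 and NAc number 24 was high in the cortical gene Slc17a7.

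In saline mice, levels per length put the secreted and lysosomal genes first. Levels here are counts scaled to the library total (CPM) per kilobase of annotated exon, which allows 1 gene to be set roughly beside another. The length joins the exons of all annotated transcripts of a gene, for example 18313 bases for Ptprc and 2175 for Igsf6. The order therefore depends in part on the length used. In PFC the protease Ctss (cathepsin S) stood at 53.0 ± 6.2 CPM per kb and the asparaginyl protease Lgmn at 51.7 ± 3.0 (SD, n = 6). These were followed by the 3 chains of the complement starter C1q, with C1qa at 44.1, C1qb at 36.9 and C1qc at 21.1 CPM per kb, and by the CSF1 receptor Csf1r at 20.2. The membrane protein Tmem119, the signalling adaptor Tyrobp, the fractalkine receptor Cx3cr1, the ADP receptor P2ry12 and the lysosomal membrane protein Laptm5 lay close together, between 12.3 and 13.3 CPM per kb. At the low end were Spi1 at 1.44, the granulocyte colony-stimulating factor receptor Csf3r at 0.969, Irf8 at 0.949, the immunoglobulin superfamily receptor Igsf6 at 0.293 and the leukocyte phosphatase Ptprc (CD45) at 0.143 CPM per kb. NAc gave nearly the same order, with Ctss at 69.8, Lgmn at 56.1, C1qa at 49.1, C1qb at 46.6, C1qc at 22.5 and Csf1r at 19.8 CPM per kb, and with Igsf6 at 0.224 and Ptprc at 0.179 last. Neighbours in the order mostly did not differ beyond their spread. The step to the next gene exceeded both SDs for 4 of the 31 neighbouring pairs in PFC and for 2 of 31 in NAc. Part of the exons of Csf1r overlaps Hmgxb3, and part of those of Itgam, an integrin chain of the complement receptor, overlaps a gene model on the same strand, so these 2 levels are less certain.

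**Figure D1:**
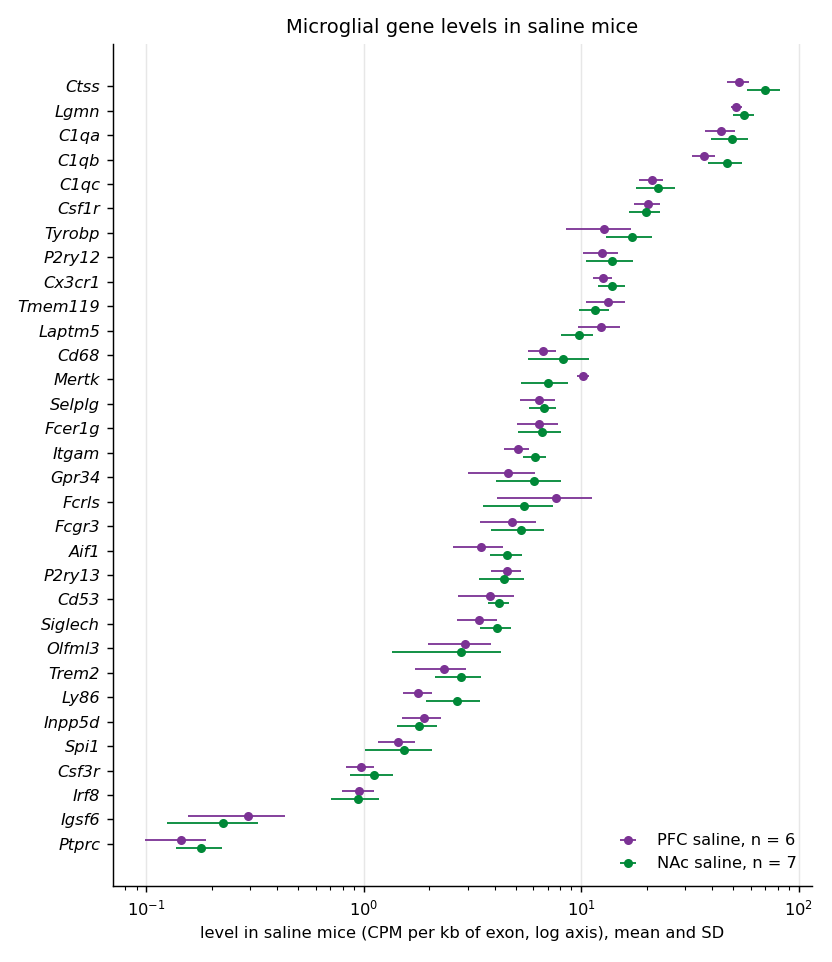
Levels of the 32 microglial genes in saline mice, in CPM per kilobase of exon on a log axis, for PFC (6 libraries) and NAc (7 libraries); points are means and bars are SD. Ctss, Lgmn and the 3 C1q chains lie at the top of both regions, and Igsf6 and Ptprc at the bottom.

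NAc was compared with PFC among saline mice to see whether the genes differ between the regions without morphine. Of 32 genes, 3 were higher and 1 was lower in NAc at an adjusted p under 0.05 (edgeR quasi-likelihood test with Benjamini-Hochberg adjustment over all genes), where 35.9% of all 19266 genes tested passed, 17.4% higher and 18.5% lower. Mertk, which takes up apoptotic cells and is also made by astrocytes, had log2 CPM of 5.33 to 5.55 in the 6 PFC libraries and 4.07 to 5.26 in the 7 NAc libraries. The groups did not overlap. Its log2 difference, NAc minus PFC, was -0.54 ± 0.15 (SE; adjusted p = 0.00393, edgeR). The lowest library was NAc number 6, and without it the difference was -0.44 and still called. Ly86, which encodes the partner of the receptor CD180, lay at 2.20 to 2.88 in PFC and 2.95 to 3.95 in NAc, without overlap, a log2 difference of 0.58 (adjusted p = 0.0472, edgeR). Ctss differed by 0.39 (adjusted p = 0.0223, edgeR) and C1qb by 0.34 (adjusted p = 0.0379, edgeR), both with overlapping groups. The median log2 difference over the 32 genes was 0.13, with 22 positive, and that over all genes 0.05, with 53.8% positive. The number of the 32 genes called ran from 1 to 5 when single libraries were left out. It was 1 without PFC number 6 and 2 without PFC number 3, NAc number 1 or NAc number 5.

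Markers of other cells differed between the regions in the same saline libraries. Of 10 genes of border-associated macrophages, a related cell of the meninges and vessels, 7 were lower in NAc and none was higher (median log2 difference -1.99). Of the endothelial markers 9 of 10 were lower, of the mural cell markers 7 of 8, and of the astrocyte markers 5 of 10, with 1 higher. Of 6 markers of oligodendrocyte precursors 4 were higher. The part of these cell types in the differences of the microglial genes was not tested.

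Igsf6 was the only one of the 32 genes called by edgeR in a comparison of a morphine stage with saline. It encodes a receptor-like protein of the immunoglobulin superfamily found on myeloid cells. The gene (ENSMUSG00000035004) lies on the minus strand of chromosome 7 from base 121064067 to 121074572 (GRCm38), opposite Mettl9 and sharing no exon base with it. The strand setting of the counting is not given, and a part of unspliced Mettl9 reads in the Igsf6 counts was not tested. In PFC the saline females had 26, 24 and 9 counts and the saline males 19, 13 and 13. At 2 weeks the 4 males had 12, 10, 11 and 15 counts, and the 3 females had 0 each. The zeros were thus in 1 sex of 1 group, and no other PFC library of the 27 fell below 8 counts. The females had 14, 18, 21 and 13 counts at 24 h and 26, 22 and 36 on chronic morphine. The males had 10, 8, 18, 12 and 16 counts at 24 h and 18, 22, 10, 23 and 17 on chronic morphine. Female and male counts overlapped at both earlier stages.

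With sexes averaged, the fitted log2 fold change of Igsf6 at 2 weeks in PFC was -3.89 ± 0.60 (SE; adjusted p = 0.0131, edgeR), where 1 of the 32 genes and 0.00557% of the 17966 genes passed. Igsf6 was itself the 1 gene called, and it had been seen in earlier results of these data. Because a fitted value against zeros depends on the prior count, the size is better given as a bound. A floor of 3 counts over the 61252836 gene counts of the 3 females is 0.0490 CPM. The saline females had 59 counts in 84632429, or 0.697 CPM. Against that pooled rate the level was at least 14.2-fold lower, or at least 13.03-fold lower without number 10. This bound covers counting error in the zeros only. It leaves out the spread between the saline females, which had 26, 24 and 9 counts. The other libraries at 0, numbers 8 and 9, were of ordinary depth. At the rate of the saline females, 18.6 and 20.5 counts would have been found in them, and the lowest count of any other of the 32 genes there was 73 in number 8 and 58 in number 9. Over the 16 combinations of region, treatment and sex, Igsf6 in these females was the only gene at 0 in every library of a combination with at least 5 counts in every other library of its region.

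In NAc, libraries with those same numbers were not low. The 2-week females numbered 8, 9 and 10 had 27, 41 and 15 counts, beside 11, 7, 8, 51 and 23 in the 2-week males. Saline mice had 7, 24 and 10 counts in females and 10, 28, 15 and 21 in males. These ranges overlapped, and the NAc log2 fold change at 2 weeks was 0.51 ± 0.41 (SE) and was not called. The stage effect differed between the regions for Igsf6 (log2 difference of the 2-week effects 4.46, NAc minus PFC; adjusted p = 0.00785, edgeR F test over the 3 stages), again 1 of 32 genes where 0.0363% of all genes passed. It was also the 1 of 32 with an unadjusted p under 0.05 in that test, beside 4.78% of all genes. That fit took all libraries as independent, and with PFC and NAc libraries paired by number Igsf6 was not called. The test of whether the stage effect differed between the sexes in PFC gave -7.16 for the 2-week term, female minus male, with an adjusted p of 0.0752 (edgeR), and DESeq2 gave -5.69 with an adjusted p of 0.00624. The 2-week call in PFC was lost without number 8 (adjusted p = 0.179, edgeR) or number 9 (adjusted p = 0.110, edgeR), with no low-count filter (adjusted p = 0.200, edgeR), with the mean of the 32 genes as a covariate (adjusted p = 0.0801, edgeR) and with sex as an additive term, where the log2 fold change was -1.28. It held without number 10 (adjusted p = 0.0240, edgeR).

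The question of the stage comparisons was how morphine drinking and time after it alter gene expression. In PFC none of the 32 genes was called on chronic morphine or at 24 h, where 0.417% and 0.0779% of all genes were called by edgeR, at 24 h 0.00557% higher and 0.0724% lower. DESeq2 called none of the 32 in either. At an unadjusted p under 0.05 in edgeR there were 2 and 1 of the 32, beside 7.91% and 3.01% of all genes. The median log2 fold change of the 32 genes was -0.06 on chronic morphine and -0.02 at 24 h, each beside 0.01 over all genes. Positive values numbered 12 and 16 of 32, beside 51.5% and 53.7% of all genes. At 2 weeks 2 of 32 had an unadjusted p under 0.05, beside 5.04% of all genes. The 2-week median was -0.13 with 13 positive, beside -0.05 and 41.5% for all genes, and without number 10 it was -0.11 with 5 positive, beside -0.01 and 48.8% for all genes. The mean log2 CPM of the 32 genes in PFC was 3.67, 3.91 and 4.002 in saline (lowest, median and highest), 3.68, 3.83 and 4.06 on chronic morphine, 3.71, 3.91 and 4.02 at 24 h and 2.60, 3.63 and 4.04 at 2 weeks, where 2.60 was number 10.

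Among the receptors, Cx3cr1 in PFC had log2 CPM of 5.66, 5.83 and 5.99 (lowest, median and highest) in saline, 5.40, 5.81 and 6.06 on chronic morphine, 5.38, 5.70 and 5.88 at 24 h and 5.49, 5.56 and 6.46 at 2 weeks. P2ry12 had 4.60, 5.10 and 5.24 in saline, 4.52, 4.81 and 4.97 on chronic morphine, 4.21, 4.79 and 4.96 at 24 h and 3.88, 4.69 and 5.36 at 2 weeks. All groups overlapped for both genes, and the highest Cx3cr1 and lowest P2ry12 value at 2 weeks came from number 10. The log2 fold change of P2ry12 at 24 h was -0.32 ± 0.15 (SE; unadjusted p = 0.0448, edgeR), which did not pass. Csf1r stayed between 6.24 and 7.25 in every PFC library, with medians of 6.87 in saline, 6.83 on chronic morphine, 6.70 at 24 h and 6.77 at 2 weeks. Tmem119 medians were 4.84, 4.99, 4.99 and 4.96 in the same order, within a range of 4.39 to 5.70.

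Trem2 and Fcgr3 gave the lowest PFC values of the 32 genes on chronic morphine. Trem2, the lipid-sensing receptor that signals through Tyrobp, had log2 CPM of 2.75, 3.58 and 4.01 in saline and 2.35, 3.26 and 3.57 on chronic morphine. The groups overlapped, and its log2 fold change was -0.52 ± 0.21 (SE; unadjusted p = 0.0191, edgeR). The lowest chronic library was number 27, and without it the value was -0.42. Fcgr3, a receptor for the constant part of antibodies, gave -0.52 ± 0.24 (unadjusted p = 0.0365, edgeR), and neither passed the adjusted threshold. The highest value in that comparison was 0.38, for Csf3r. C1qa medians were 5.56 in saline, 5.34 on chronic morphine, 5.54 at 24 h and 5.28 at 2 weeks, with overlapping ranges. Tyrobp itself gave -0.19, 0.07 and 0.19 at the 3 stages in time order, none of them called. Of the transcription factors, Spi1 had the highest 2-week value of the 32 genes. Its log2 CPM was 1.64, 1.92 and 2.32 in saline and 1.74, 2.17 and 4.20 at 2 weeks, a log2 fold change of 0.70 ± 0.30 (unadjusted p = 0.0260, edgeR). The highest library was number 10, and without it the value was 0.10.

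In NAc the values were mostly above 0 at each stage, but none of the 32 genes was called by edgeR, where 1.69% of all genes were called on chronic morphine, 0.163% at 24 h and 0.00544% at 2 weeks. Positive log2 fold changes numbered 25, 31 and 29 of 32 in that order, with medians of 0.10, 0.18 and 0.19. Over all genes 48.2%, 48.3% and 50.3% were positive, with medians of -0.01, -0.01 and 0.00. Unadjusted p-values under 0.05 numbered 5, 7 and 5 of 32, beside 15.2%, 12.1% and 6.44% of all genes. DESeq2 called 1 of the 32 on chronic morphine, Aif1, and none at the later stages. The 3 comparisons share their 7 saline libraries, so they are not separate observations, and the 32 genes vary together between libraries, as described further on.

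Averaged over the 32 genes, log2 CPM in NAc was 3.48, 4.09 and 4.30 in saline (lowest, median and highest), 3.91, 4.08 and 4.55 on chronic morphine, 3.95, 4.16 and 4.62 at 24 h and 3.84, 4.18 and 4.70 at 2 weeks. All groups overlapped, and the medians ran from 4.08 to 4.18. The lowest saline library was number 6, which was low in Drd1. Without numbers 6, 24 and 25 the positive values numbered 25, 30 and 28. The 8 striatal neuron markers were also positive in all 3 comparisons, 8 of 8 each time, with medians of 0.56, 0.31 and 0.40. Endothelial markers were positive for 0, 9 and 3 of 10. The part of these cell types in the microglial values was not tested. A covariate for the state of 20 genes that are either high or low in a NAc library brought the positive values on chronic morphine to 13 of 32.

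Aif1, which encodes the calcium-binding protein IBA1 used to stain microglia, was the highest of the NAc chronic values apart from Igsf6. Its log2 CPM was 2.54, 2.71 and 3.15 in the 7 saline libraries, 2.66, 3.29 and 4.08 in the 8 chronic ones, 2.74, 3.16 and 3.42 in the 9 at 24 h and 2.33, 2.59 and 3.41 in the 8 at 2 weeks. The saline and chronic groups overlapped, although the chronic median lay above every saline library. The log2 fold change was 0.63 ± 0.18 (SE; adjusted p = 0.0700, edgeR), and DESeq2 gave an adjusted p of 0.0265. It was called without number 25 (adjusted p = 0.0360, edgeR) or number 31 (adjusted p = 0.0350, edgeR). At 2 weeks Aif1 gave -0.08 ± 0.18, the lowest of the 32 genes.

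Of the other NAc receptors, Cx3cr1 had medians of 6.00 in saline, 6.11 on chronic morphine, 6.14 at 24 h and 6.16 at 2 weeks, all within 5.53 to 6.56. P2ry12 had medians of 5.16, 5.17, 5.31 and 5.31 within 4.53 to 5.69, and its relative P2ry13 gave log2 fold changes of 0.29, 0.35 and 0.11. Tmem119 had log2 CPM of 4.31, 4.80 and 5.05 in saline, 4.71, 4.94 and 5.45 on chronic morphine, 4.81, 5.02 and 5.53 at 24 h and 4.67, 5.05 and 5.61 at 2 weeks. Its log2 fold changes were 0.25 ± 0.12, 0.32 ± 0.11 and 0.37 ± 0.12 (SE), each with an unadjusted p under 0.05 in edgeR and none called. Selplg, the ligand of P-selectin, had 4.45, 4.81 and 5.12 in saline and 4.94, 5.11 and 5.51 at 2 weeks, overlapping, with a log2 fold change of 0.32 (adjusted p = 0.357, edgeR). Csf1r medians were 6.82, 6.86, 6.91 and 7.01 over the same 4 groups in stage order, within 6.48 to 7.36.

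The complement gene C1qa in NAc had medians of 5.67 in saline, 5.78 on chronic morphine, 5.75 at 24 h and 5.68 at 2 weeks, and the 3 C1q chains gave log2 fold changes of 0.07 to 0.17 at the 3 stages. Trem2 was the lowest of the 32 on chronic morphine at -0.25 ± 0.14 (SE), and it gave 0.11 at 24 h and 0.18 at 2 weeks, so PFC and NAc both held a negative Trem2 value on chronic morphine and neither was called. Fcgr3 gave -0.25, 0.30 and 0.45 across the stages. Lgmn was the lowest at 24 h, at -0.13 ± 0.11. Highest at 24 h and 2 weeks was Igsf6, at 0.93 ± 0.40 and 0.51 ± 0.41, on 7 to 64 counts a library. Spi1 gave 0.25, 0.22 and 0.34 and Irf8 0.11, 0.18 and 0.29, none called.

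**Figure D2:**
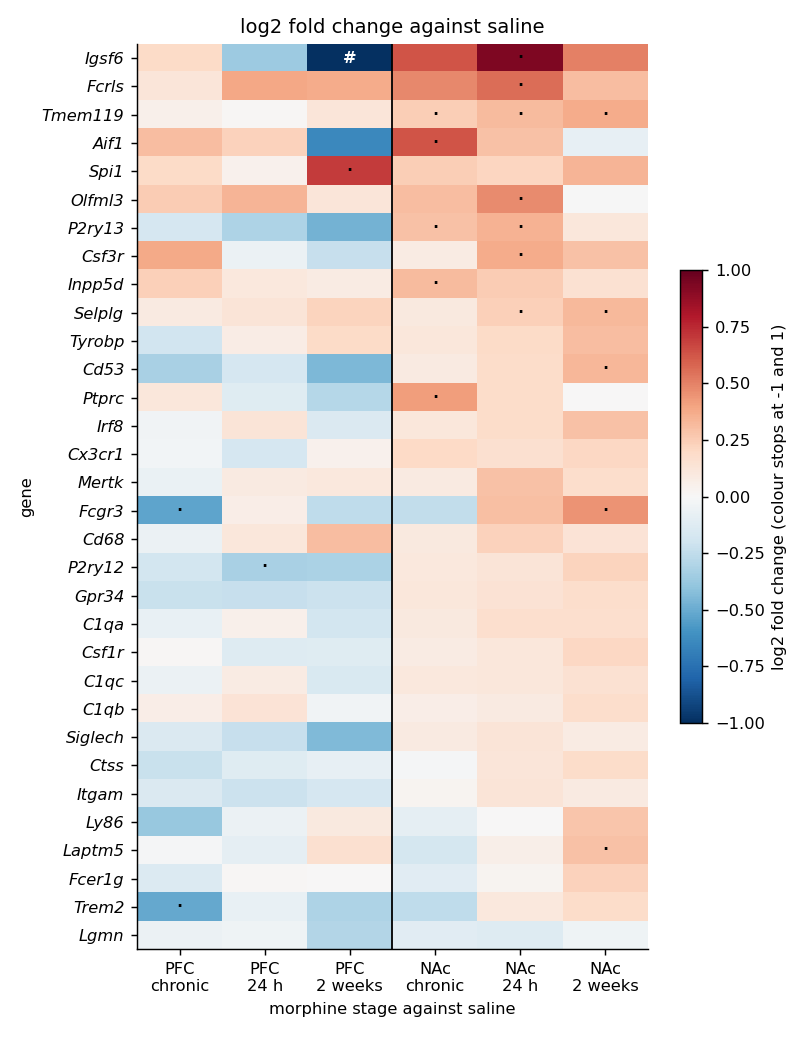
Log2 fold change of each of the 32 genes against saline at the 3 morphine stages in PFC and NAc, from edgeR with the sexes averaged; colour gives the value and stops at -1 and 1, a dot marks an unadjusted p under 0.05 and # an adjusted one. NAc columns are mostly above 0 (25, 31 and 29 of 32 genes), PFC columns are mixed (12, 16 and 13 of 32, the last being 5 without number 10), and the only called value is Igsf6 in PFC at 2 weeks.

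Females and males were compared over all treatments, since the study set out to look at both sexes. No gene of the 32 was called in either region by edgeR or DESeq2, where 0.0334% of genes were called in PFC (0.00557% higher in females and 0.0278% lower) and 0.0598% in NAc (0.0272% and 0.0326%). Unadjusted p-values under 0.05 numbered 4 and 2 of 32, beside 4.54% and 4.79% of all genes. In PFC 11 of 32 values were positive, meaning higher in females, with a median of -0.02 (all genes -0.03). In NAc 31 of 32 were positive with a median of 0.11, beside -0.01 and 47.7% over all genes. Without number 27 the medians were -0.04 in PFC and 0.14 in NAc. Without number 10 the PFC median was -0.07 with 11 positive, beside -0.01 and 48.1% for all genes. Olfml3, a secreted matrix protein made by microglia, gave 0.31 ± 0.14 (SE) in PFC and 0.38 ± 0.14 in NAc. The PFC value was 0.16 without number 10, a 2-week female high in Olfml3. In saline mice its log2 CPM was 4.38, 4.49 and 4.69 in PFC females and 3.48, 3.75 and 3.85 in PFC males, and 4.64, 4.66 and 4.76 in NAc females against a range of 2.39 to 4.27 in the 4 NAc males. Among these saline mice females lay above males in both regions without overlap, on only 3 libraries of each sex in PFC. The share of all genes that separate in this way is not given here. In every morphine group of both regions the sexes overlapped. In PFC the females had 3.79 to 4.55 and the males 4.44 to 4.76 at 24 h. On chronic morphine the PFC ranges were 4.13 to 4.69 and 3.78 to 4.97, and at 2 weeks 3.81 to 5.30 and 3.45 to 4.22. At 24 h the NAc females had 3.95, 4.34 and 4.88 (lowest, median and highest) and the males 4.34, 4.80 and 4.92, overlapping. The test of a stage effect differing by sex gave adjusted p-values of 0.412 in NAc and 0.813 in PFC for Olfml3 (edgeR). That test called none of the 32 genes in either region by edgeR, where 0% of genes were called in PFC and 0.0544% in NAc. There were 2 and 7 of 32 at an unadjusted p under 0.05, beside 4.71% and 9.56% of all genes, and DESeq2 called 1 in PFC, Igsf6, and none in NAc.

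Other genes of the pathways around these 32 were followed in the same 6 stage comparisons. The list of TREM2, TYROBP and CSF1 receptor signalling (18 genes tested) had no gene called by edgeR at any stage in either region, and DESeq2 called 1, the kinase subunit gene Pik3cg, on chronic morphine in NAc. Unadjusted p-values under 0.05 numbered 3, 0 and 1 of these in PFC in stage order and 3, 2 and 2 in NAc. Over all genes the shares at that threshold were 7.91%, 3.01% and 5.04% in PFC and 15.2%, 12.1% and 6.44% in NAc, and they apply to the lists that follow. No complement gene of 17 was called by either tool, with 0, 0 and 1 at an unadjusted p under 0.05 in PFC and 1, 3 and 0 in NAc. Nor was any of 17 Toll-like receptor and cytokine genes called by either tool (unadjusted counts 0, 0 and 1 in PFC and 1, 3 and 2 in NAc), or any of 11 microglial transcription factors (1, 0 and 1 in PFC and 2, 2 and 2 in NAc). These lists share genes with the 32, among them the C1q chains, Csf1r, Trem2 and Spi1. Of the genes that microglia switch on around damage, 16 of which were tested in NAc, Apoe fell by 0.30 on the log2 scale on chronic morphine in NAc (adjusted p = 0.0416, edgeR). Apoe is a lipid carrier made mainly by astrocytes. Among 9 neuronal partners of microglial receptors Cd47, the signal against engulfment, rose in NAc on chronic morphine (0.31, adjusted p = 0.0449, edgeR) and at 24 h (0.43, adjusted p = 0.0219, edgeR). These calls stand beside 1.69% of all genes called on chronic morphine and 0.163% at 24 h. The calls of Apoe and of Cd47 on chronic morphine were lost when any of 12 and 23 single libraries was left out. The rise of Cd47 was not confined to NAc. In PFC at 24 h DESeq2 called it as well (0.39, adjusted p = 0.0246), although edgeR did not. Its PFC log2 CPM was 6.12 to 6.87 in saline and 6.81 to 7.21 at 24 h, with a slight overlap.

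Between libraries of the same treatment and sex, the 32 genes moved together in NAc. Pearson's r between deviations from the treatment and sex means was computed for all 496 pairs, as a description. Libraries share their depth and their cell makeup, so the pairs are not independent. Over the 32 NAc libraries the median r was 0.61, with 477 pairs above 0 and a range of -0.59 to 0.95. Over 29 PFC libraries, without number 10, the median was 0.20 with 358 pairs above 0, and with number 10 it was 0.10. Among the closest pairs were the C1q chains, at 0.88 to 0.95 in NAc and 0.75 to 0.80 in PFC without number 10, and in NAc Ctss with C1qa and with C1qb, both at 0.93. Csf1r with Cx3cr1 gave 0.88 in NAc and 0.77 in PFC (0.36 with number 10), P2ry12 with P2ry13 0.81 and 0.51, Tyrobp with its partner Trem2 0.70 and 0.47, and Spi1 with Irf8 0.56 and 0.33.

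Some of the 32 stood aside from the rest in NAc. The median r of a gene with the other 31 was lowest for the Fc receptor-like gene Fcrls at 0.06, then Mertk at 0.29, Lgmn at 0.31, the lysosomal protein Cd68 at 0.37 and Igsf6 at 0.39. It was highest for Laptm5 and C1qb, both at 0.73. The mean of a separate list of microglia-enriched genes followed the mean of the 32 with r of 0.96 in NAc and 0.56 in PFC without number 10. Lists of other cells in the same PFC libraries gave similar values, with 0.59 for mural cells, 0.55 for red blood cells and 0.54 for astrocytes. In NAc the highest list of another brain cell was that of endothelial cells at 0.47. Over 12531 other genes, those most like the mean of the 32 in both regions, by the smaller of the 2 values of r, were Bin2 (0.85 in PFC and 0.91 in NAc), Havcr2, Dock2, Ncf1, Lag3, Ctsh, Pld4, Rac2, Grn and Hpgds. Without PFC number 10 the closest included Cst3, Lpcat2, Ccni, Itgb5, Cd37, Ptpn6, Clic1, Rnase4 and Cyba, none of which was in the first set.

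**Figure D3:**
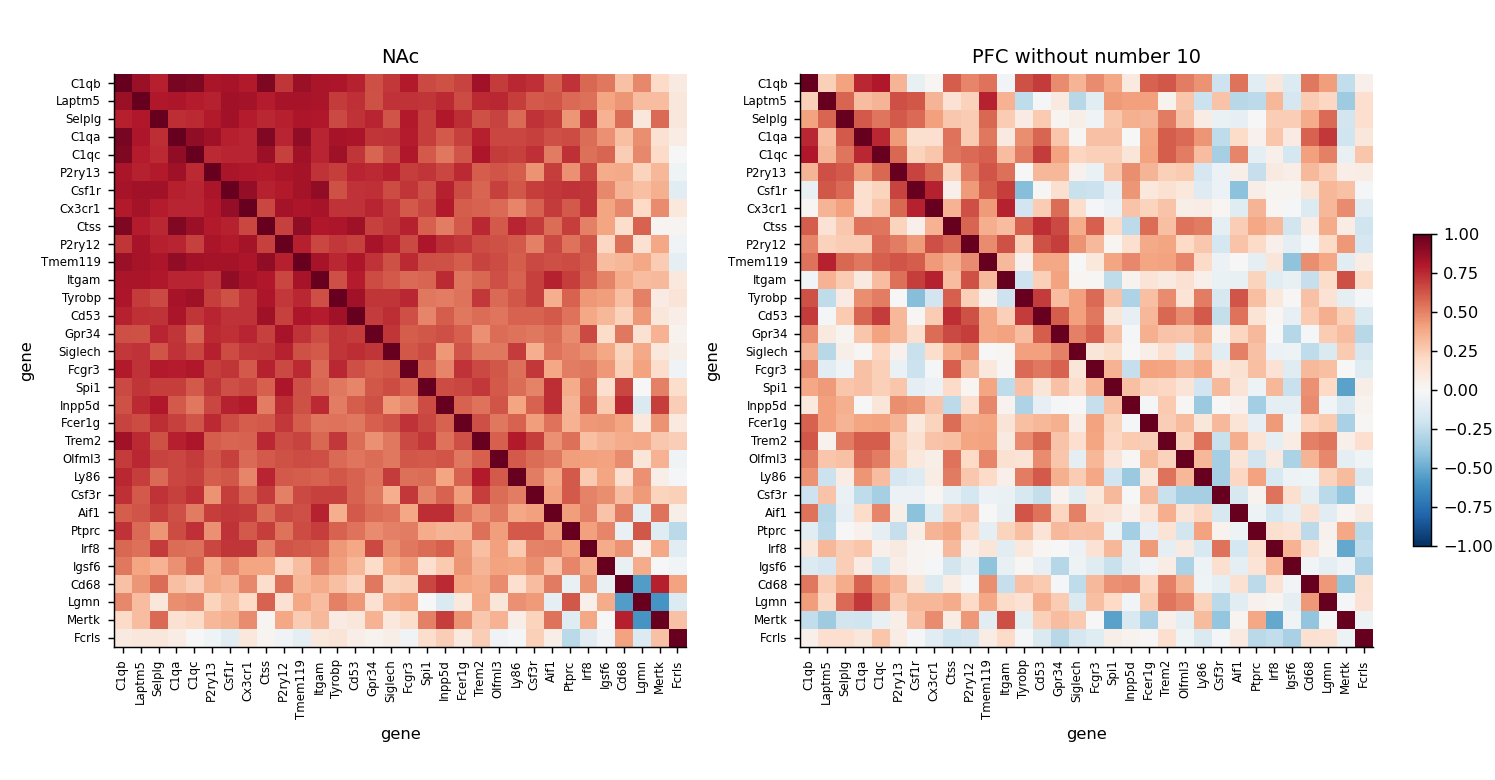
Pearson's r between the 32 genes over libraries, after the mean of each treatment and sex was subtracted, for PFC without number 10 (29 libraries) and NAc (32 libraries). NAc shows mostly positive values (median 0.61) and PFC weaker ones (median 0.20), with the C1q chains among the closest pairs in both.

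The same number was carried by a PFC and an NAc library for 30 numbers, so levels in both regions could be set against each other. Pearson's r was taken between deviations from the treatment and sex means. The median over these numbers was 0.16 for the 32 genes and 0.09 for all 12563 genes compared. Fcrls had Pearson's r of 0.75 and Spearman's rho of 0.71 (permutation test on r with 100000 resamples, two-sided, p = 4e-05, adjusted p = 0.0359 over 12563 genes), and 14 genes, or 0.111%, passed. Number 5, a saline library, was lowest in both regions, with log2 CPM of 2.71 in PFC and 2.46 in NAc. Without the 2 numbers farthest from the PFC median, r was 0.78, and without numbers 10 and 27 it was 0.81. Trem2 gave 0.58 (adjusted p = 0.242, permutation test) and the phosphatase gene Inpp5d 0.57 (adjusted p = 0.262, permutation test), and 1 of the 32 genes passed in all. Fcrls levels differed widely within groups, from 2.71 to 4.94 in the PFC saline libraries and from 2.46 to 4.27 in the NAc ones. Its stage values against saline were 0.12, 0.39 and 0.37 in PFC and 0.48, 0.56 and 0.31 in NAc, none called.

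**Figure D4:**
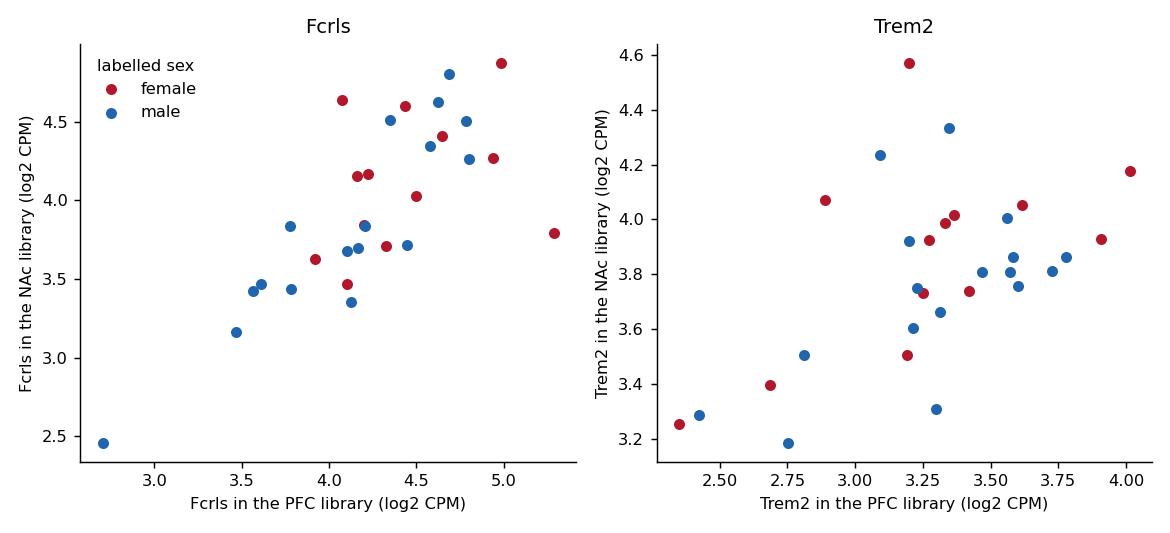
Fcrls log2 CPM (left) and Trem2 log2 CPM (right) in the NAc library (vertical axis) against the PFC library (horizontal axis) of the same number; each point is 1 of 30 numbers, coloured by labelled sex. Number 5 lies lowest for Fcrls in both regions (2.71 and 2.46), and r between deviations is 0.75 for Fcrls and 0.58 for Trem2.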

How the data were processed

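The values are raw counts of reads per gene deposited by the authors, with 62 mouse libraries in the table (30 PFC, 32 NAc). Per the submitters' processing notes the mouse build was GRCm38, and FastQC, cutadapt, Trimmomatic, STAR, HISAT2 and RSEM are named without their roles. The strand setting of the counting is not given in the sources used here. Rows that name no gene were left out of totals and tests. Reads in no gene were 4.50 to 8.30% of all, reads that could not be assigned to 1 gene 0.612 to 0.868%, reads with several alignments 11.1 to 17.5% and unaligned reads 0.479 to 21.1%.

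Counts were tested with edgeR 4.0.16 in R 4.3.3 (TMM scaling, filterByExpr by treatment and sex, glmQLFit and glmQLFTest, Benjamini-Hochberg over all genes tested, threshold 0.05). Each region was fitted with all 4 treatments as treatment by sex means, and contrasts were averaged over the sexes. Both regions together gave the region comparisons. SE was the log2 fold change divided by the root of F. Log2 CPM used a prior count of 2 and TMM over all mouse libraries. Alternatives were DESeq2 1.42.0, its size factors in edgeR, no low-count filter, additive sex, 2 surrogate variables (sva 3.50.0), covariates for striatal markers, the microglial mean and genes in a high or low state, a replicate block, and leaving out each library. Leaving out the doubtful libraries together was added after seeing the data.

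The fits were tested on simulated data. The 32 genes and the other gene lists were chosen with earlier results of these data known. Genes named with values are those called, the highest and lowest of the 32 in each comparison, and Cx3cr1, P2ry12, Tmem119, C1qa, Csf1r and Spi1. Others of the 32 were added after their values were seen. The numbers were taken to pair regions only if every pair's correlation over genes exceeded 0.1, which 20 of 30 pairs did, so the block was not used in the main fit. Each floor covers counting error only. Some results on genes outside the 32 are not reported here.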

Additional observations from a re-analysis of the deposited data

Results flagged for a closer look

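A library far from the rest was looked for in 80 checks, and 9 were picked out. Each check took 1 gene, or the mean of the 32, in 1 group of 4 to 10 libraries. Chance picks out about 1 in 20 of separate checks. These checks share libraries and genes that vary together, so the 2 shares cannot be compared. The values are log2 CPM. PFC number 10 gave 3 of them among the 2-week libraries: Spi1 highest at 4.20, Olfml3 highest at 5.30 and the mean of the 32 genes lowest at 2.60. In PFC on chronic morphine, Cx3cr1 was lowest in number 27 at 5.40 and C1qa highest in number 30 at 6.07. In PFC saline mice C1qa was lowest in number 3 at 5.03, and at 24 h Olfml3 was lowest in number 19 at 3.79. In NAc, Csf1r was highest in number 26 on chronic morphine at 7.36, and the mean of the 32 genes was highest in number 9 at 2 weeks at 4.70.

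The 2-week effect on Igsf6 differed between the regions by 4.46 on the log2 scale, NAc minus PFC (adjusted p = 0.00785, edgeR). It rests on the 3 PFC females at 0 counts, of which number 10 is the library that stood apart. Without number 10 the adjusted p was 0.0120, without number 8 it was 0.0622 and without number 9 it was 0.0765 (edgeR). With PFC and NAc libraries paired by number the difference was not called.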

How the results depend on the processing

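The 2-week call of Igsf6 in PFC, 1 of the 32 genes, went to 0 with no low-count filter (adjusted p = 0.200, edgeR), with sex as an additive term (log2 fold change -1.28) and with the mean of the 32 genes as a covariate, and it held under DESeq2 (-3.15, adjusted p = 0.0167). DESeq2 called 1 of the 32 (Igsf6) for the stage effect by sex in PFC, where edgeR called 0, and 1 (Aif1) on chronic morphine in NAc, where edgeR called 0. The mean of the 32 genes as a covariate gave 2 there (Laptm5 and Trem2), a value that by construction is relative to the other members. With the replicate block, pairing PFC and NAc libraries by number, the stage effect by region called 0 of the 32 in place of 1 (Igsf6, adjusted p = 0.0985, edgeR), and 5 in place of 4 differed between the regions in saline mice.

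Single libraries left out moved the number of the 32 called from 0 to 1 on chronic morphine in NAc, for the stage effect by sex in PFC, at 2 weeks in PFC and for the stage effect by region, and from 1 to 5 between the regions. The stage effect of Igsf6 by sex in PFC was called without number 3, 10, 17 or 26. Every other count of the 32 was 0 to 0. Signs turned for Lgmn in NAc at 24 h with 2 surrogate variables (0.0035), and for Aif1 in NAc at 2 weeks with the high or low state covariate (0.077) and without number 8 (0.0040, the highest of a leave-one-out range from -0.23). They also turned for the 2-week sex term of Olfml3 in PFC without number 8 (0.15) or 9 (0.02), within a leave-one-out range of -0.72 to 0.15, and for the Igsf6 sex difference in NAc, which ran from -0.24 to 0.095 with single libraries left out. None of these was called, and the cause was not tested.

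Over all genes, calls ranged widely over the alternatives: 47 to 185 in PFC and 22 to 1057 in NAc on chronic morphine (75 and 311 as reported), 14 to 46 and 4 to 146 at 24 h (14 and 30), and 0 to 5 and 1 to 30 at 2 weeks (1 in each). For the stage effect by sex they were 0 to 48 in PFC and 10 to 93 in NAc (0 and 10), and for the stage effect by region 4 to 28 (7). Leaving out single libraries gave 46 to 178 in PFC and 120 to 566 in NAc on chronic morphine, the 178 without number 10, the 120 without number 27 and the 566 without number 25. Igsf6 rests on 0 to 64 counts a library.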
